A study of Mus musculus with 12 samples.

Results

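The genes of the integrins, the cell surface receptors for extracellular matrix, and of the laminins, the matrix proteins that several of these receptors bind, were described across 4 mouse embryonic fibroblast (MEF) lines profiled by RNA-Seq. Members were the rows of the gene count table whose symbols begin with Itga, the symbols *Itgb1* to *Itgb8*, and the symbols of laminin alpha, beta and gamma chains (Lama, Lamb and Lamc). The rule found 37 of the 24453 genes of the table, of which 26 encode integrin subunits and 11 encode laminin chains. After a filter on low counts 31 remained among 14026 tested genes, namely 20 integrin and 11 laminin genes. A gene could pass this filter through the line in which it was high, so counts of members that passed do not stand for all 37. There were 12 libraries, 3 biological replicates of each line. TM6 MEFs are the parental line, immortalized with SV40 large T antigen, of strain C57BL6/J, with loxP sites around exon 2 of both *Pnpt1* alleles (genotype *Pnpt1* neo-flox/neo-flox). *Pnpt1* encodes polynucleotide phosphorylase (PNPase), an RNA-degrading enzyme of mitochondria. PKO-1 and PKO-6 MEFs are clones 1 and 6 grown from single TM6 cells after Cre delivered by adenovirus removed exon 2. The rho0 MEFs are TM6 cells cultured for 3 weeks with ditercalinium at 750 ng/mL, which depletes mitochondrial DNA (mtDNA), and then grown from a single colony with intact *Pnpt1*. The study reports that the PKO clones also lost their mtDNA, and that neither they nor the rho0 cells respired. All lines received uridine at 50 µg/mL, which cells without respiration need. Each derived line was 1 clone, so the replicates measured the spread between cultures of a clone, and the genotype or treatment of a line and its descent from 1 cell cannot be told apart.

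Each integrin is a pair of an alpha and a beta subunit that spans the plasma membrane, and the pair sets which matrix protein is bound. Laminins are cross-shaped trimers of an alpha, a beta and a gamma chain that assemble into the sheet of the basement membrane, and fibroblasts secrete several of them. Alpha3, alpha6 and alpha7 subunits bind laminins, other alpha subunits bind collagens or the RGD motif of fibronectin and vitronectin, and a further group belongs to white blood cells.

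Promoter windows, 250 bases before to 50 bases after an annotated transcription start, were held by RefSeq's table (build GRCm38.p6, the build of the deposited coordinates) for 23 of the 37 members, in 26 windows. The windows of 5 genes are shown because these genes moved in opposite directions within a chain family (*Lamb1* against *Lamb2*, *Lama5* against *Lama2*) or, among members with a line mean of at least 100 normalized counts, differed most between the PKO clones (*Itgb7*). They lay at chr12:31265043-31265342, plus strand (*Lamb1*), chr9:108479612-108479911, plus strand (*Lamb2*), chr2:180225810-180226109, minus strand (*Lama5*), chr10:27616893-27617192, minus strand (*Lama2*) and chr15:102231886-102232185, minus strand (*Itgb7*), and are written 5′ to 3′ on the strand of the gene. Capitals mark the GC box, GGGCGG or its reverse complement CCGCCC, the only one of 4 motifs searched on both strands that these windows held.
Lamb1: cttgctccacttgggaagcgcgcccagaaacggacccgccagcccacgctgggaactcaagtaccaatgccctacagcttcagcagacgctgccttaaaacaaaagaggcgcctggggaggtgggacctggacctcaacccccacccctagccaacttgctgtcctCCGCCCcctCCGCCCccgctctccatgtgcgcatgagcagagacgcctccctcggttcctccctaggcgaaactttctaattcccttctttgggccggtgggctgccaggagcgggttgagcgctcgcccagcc
Lamb2: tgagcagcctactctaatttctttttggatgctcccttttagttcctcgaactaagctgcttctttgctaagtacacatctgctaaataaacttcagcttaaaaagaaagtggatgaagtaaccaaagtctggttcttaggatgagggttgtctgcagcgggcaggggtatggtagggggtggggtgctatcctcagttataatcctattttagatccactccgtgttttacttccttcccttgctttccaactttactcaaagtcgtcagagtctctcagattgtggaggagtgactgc
Lama5: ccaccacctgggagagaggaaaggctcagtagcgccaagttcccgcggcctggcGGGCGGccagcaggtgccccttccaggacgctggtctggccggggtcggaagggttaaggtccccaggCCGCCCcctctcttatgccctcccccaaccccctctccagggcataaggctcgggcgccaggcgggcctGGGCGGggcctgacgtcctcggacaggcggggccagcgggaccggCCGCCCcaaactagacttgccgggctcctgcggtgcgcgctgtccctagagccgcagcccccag
Lama2: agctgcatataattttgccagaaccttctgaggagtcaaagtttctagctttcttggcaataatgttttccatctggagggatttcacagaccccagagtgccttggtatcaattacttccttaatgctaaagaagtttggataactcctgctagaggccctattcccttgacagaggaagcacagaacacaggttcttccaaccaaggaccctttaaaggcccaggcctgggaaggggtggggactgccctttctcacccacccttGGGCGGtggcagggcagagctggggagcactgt
Itgb7: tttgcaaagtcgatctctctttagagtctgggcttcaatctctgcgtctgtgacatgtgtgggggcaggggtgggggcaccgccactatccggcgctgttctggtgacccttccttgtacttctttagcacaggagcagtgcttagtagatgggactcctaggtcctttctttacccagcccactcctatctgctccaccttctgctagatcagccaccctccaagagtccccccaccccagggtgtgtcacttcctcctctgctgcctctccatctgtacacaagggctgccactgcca
The *Lama5* window held 4 GC boxes, that of *Lamb1* held 2, that of *Lama2* held 1, and those of *Lamb2* and *Itgb7* held 0. Of all 32851 windows of this length 35.7% held a GC box, against 12 of the 26 windows of members. The TATA box (TATAAA) was in 13.6% of all windows and the E-box (CACGTG) in 7.15%, and both were in 0 windows of members. The AP-1 site (TGACTCA) was in 5.20% of all windows and in 2 of members, those of *Itga9* and *Itgax*. CG pairs numbered 24 in the *Lama5* window and 18 in that of *Lamb1*, against 4 in *Lamb2*, 1 in *Lama2* and 5 in *Itgb7*, with a median of 7 over all windows. These are letters found in the windows, and binding or methylation was not measured.

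Libraries held 47164860 to 67991378 estimated counts. *Pnpt1* stood at 3131 ± 262 normalized counts (counts scaled to a common library size, mean ± SD, n = 3) in TM6, 5271 ± 230 in rho0, 1240.1 ± 44.3 in PKO-1 and 1944 ± 250 in PKO-6. These counts cover all exons of the gene, and exon 2 was not measured on its own. The 9 fibroblast markers summed to 405030 to 451550 normalized counts in TM6, 210210 to 260290 in rho0, 331620 to 351500 in PKO-1 and 137750 to 180550 in PKO-6, and their part in the results was not tested. Most of each sum came from *Vim*, *Col1a1* and *Col1a2*. *Thy1*, a surface marker of many fibroblasts, reached at most 5 counts. *Lum* had means of 7.70 in TM6, 0 in rho0, 116 in PKO-1 and 1.65 in PKO-6. In the same order *Dcn* had 25.3, 8.20, 183 and 147, and *Pdgfra* had 342, 81.6, 3225 and 415. In bulk RNA, fewer cells of a type and less RNA per cell cannot be told apart.

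A gene was called changed where its log2 fold change exceeded 0.5 in size at an edgeR adjusted p under 0.01. In rho0 against TM6, 17 of the 31 tested members (54.8%) were changed, 7 higher and 10 lower, where 42.1% of all tested genes were changed (20.7% higher and 21.4% lower). In PKO-1 against TM6, 17 were changed (54.8%), again 7 higher and 10 lower, against 34.3% of all genes (16.4% higher, 17.9% lower). In PKO-6 against TM6, 23 were changed (74.2%), 15 higher and 8 lower, against 41.3% of all genes (21.9% higher, 19.4% lower). These 3 comparisons share the TM6 libraries. Between the clones, 18 members differed (58.1%), with PKO-1 above PKO-6 for 6 of them and below for 12, against 29.1% of all genes (11.5% higher, 17.6% lower). In PKO-1 against rho0, 11 members were changed (35.5%), 6 higher and 5 lower, a share near that of all genes (32.7%, with 15.1% higher and 17.6% lower). In PKO-6 against rho0, 15 were changed (48.4%), 12 higher and 3 lower, against 21.5% of all genes (13.3% higher, 8.16% lower). The median absolute log2 fold change against TM6 was 0.66 over members and 0.48 over all genes in rho0, 0.86 and 0.39 in PKO-1, and 0.82 and 0.46 in PKO-6. With both clones taken as 1 PKO group, the grouping of the study, 11 members differed from TM6 (25.7% of all genes) and 8 differed between rho0 and TM6 (29.3%). The 11 were *Itga3*, *Itga6*, *Itga7*, *Itgb4*, *Lama5* and *Lamb1*, which were higher, and *Itga5*, *Itgb2*, *Itgb5*, *Lama2* and *Lamb2*, which were lower.

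The beta chains of laminin changed in opposite directions in all 3 derived lines. *Lamb1*, the beta chain of most embryonic laminins, rose, and *Lamb2*, the beta chain known from the synapse and the kidney filter, fell. *Lamb1* (chromosome 12, 31265294 to 31329639, 33 exons) had normalized counts of 11723, 12217 and 11837 in TM6, 28003, 24726 and 25814 in rho0, 30064, 31382 and 28494 in PKO-1 and 33446, 35896 and 32816 in PKO-6. Every library of the derived lines lay above every TM6 library, with means 2.19-fold, 2.51-fold and 2.85-fold those of TM6. The log2 fold change (± standard error, here and below) was 1.13 ± 0.06 (edgeR adjusted p = 2.004e-09) in rho0, 1.33 ± 0.06 (edgeR adjusted p = 5.491e-10) in PKO-1 and 1.51 ± 0.06 (edgeR adjusted p = 9.279e-11) in PKO-6. Chromosome 12 as a whole was higher in these lines, with a median log2 fold change over its 491 tested genes of 0.55, 0.56 and 0.53. After this median was subtracted, *Lamb1* remained at 0.58 in rho0, 0.77 in PKO-1 and 0.98 in PKO-6. *Lamb2* (chromosome 9, 108479862 to 108490530, 33 exons) had 12189.6, 10452 and 10433 in TM6, 4445, 4163 and 4123 in rho0, 2821, 2859.6 and 3153 in PKO-1 and 2109, 1919 and 1970.2 in PKO-6. Its libraries did not overlap between any 2 lines, and the order ran from TM6 down through rho0 and PKO-1 to PKO-6. The log2 fold change was -1.38 ± 0.07 (edgeR adjusted p = 8.237e-10) in rho0, -1.90 ± 0.07 (edgeR adjusted p = 5.274e-11) in PKO-1 and -2.46 ± 0.07 (edgeR adjusted p = 2.986e-12) in PKO-6. PKO-1 exceeded PKO-6 by 0.56 ± 0.07, edgeR adjusted p = 1.242e-05. PKO-1 lay below rho0 by a log2 fold change of -0.53 ± 0.07, edgeR adjusted p = 1.944e-05, which fell to -0.49 without PKO-1 replicate 1 and to -0.09 with the median of chromosome 9 subtracted, both under the threshold of 0.5.

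*Lamb3*, the beta chain of the laminin that anchors epithelia, held at most 0.970% of beta chain TPM (a level per transcript length) in any library. Its normalized counts were 128, 134 and 153 in TM6, 35.8, 13.3 and 39.1 in rho0, 19.05, 12.8 and 15.5 in PKO-1 and 80.2, 107 and 85.3 in PKO-6. TM6 was highest, PKO-6 was next without overlap, and rho0 and PKO-1 overlapped. The fall was -2.22 ± 0.27 (edgeR adjusted p = 5.676e-06) in rho0 and -3.13 ± 0.30 (edgeR adjusted p = 6.513e-07) in PKO-1 on the log2 scale, while PKO-6 did not pass (-0.61 ± 0.24, edgeR adjusted p = 0.03522). Its 2 annotated transcripts could not be followed at these counts, since the deposited isoform share of either was 0% or 100% within rho0 and within PKO-1.

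**Figure D1:**
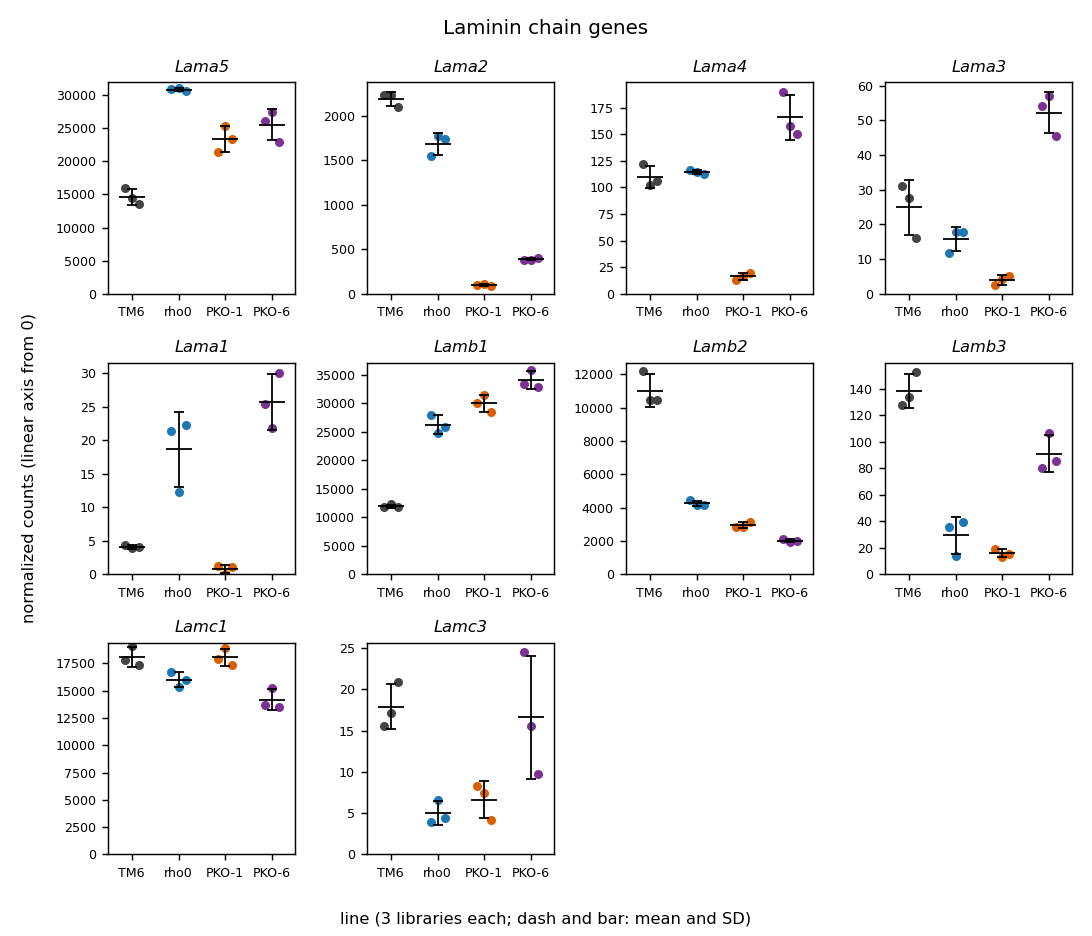
Normalized counts of 10 laminin chain genes (vertical axes, linear from 0) in the 3 libraries of each line (dots), with the mean and SD (dash and bar). *Lamb1* is above TM6 and *Lamb2* below TM6 in every library of rho0, PKO-1 and PKO-6, and *Lama2* and *Lama4* are lowest in PKO-1.

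Among the alpha chains, *Lama5* rose in each derived line, whereas *Lama2* fell in the PKO clones and *Lama4* fell in PKO-1. *Lama5*, the alpha chain of the most widespread laminins of adult tissue, had normalized counts of 15951, 14482 and 13512 in TM6, 30869, 31062 and 30656 in rho0, 21413, 25415 and 23409 in PKO-1 and 26126, 27498 and 22920.4 in PKO-6. All libraries of the derived lines were above those of TM6, and the clones overlapped. The log2 fold change was 1.08 ± 0.08 (edgeR adjusted p = 5.699e-08) in rho0, 0.68 ± 0.08 (edgeR adjusted p = 7.157e-06) in PKO-1 and 0.80 ± 0.08 (edgeR adjusted p = 1.03e-06) in PKO-6. *Lama2*, the alpha chain of muscle and peripheral nerve, whose loss causes a muscular dystrophy, had 2236, 2237 and 2098 in TM6, 1549, 1771 and 1741 in rho0, 97.6, 115 and 86.9 in PKO-1 and 380.0, 384 and 406 in PKO-6. The 4 lines did not overlap. PKO-1 was 21.9-fold lower than TM6 (-4.45 ± 0.09, edgeR adjusted p = 3.416e-13) and PKO-6 was 5.61-fold lower (-2.49 ± 0.08, edgeR adjusted p = 6.614e-12). In rho0 the difference from TM6 was smaller than the threshold (-0.38 ± 0.07, edgeR adjusted p = 0.0004065). The clones differed by -1.97 ± 0.10 (edgeR adjusted p = 1.057e-09) on the log2 scale, with PKO-1 lower. The muscle markers *Myog* and *Myod1* were at 0 and at most 1 count in all libraries. The third muscle marker, *Acta1*, had means of 16.5 in TM6, 1.06 in rho0, 19.2 in PKO-1 and 0.67 in PKO-6, and its part in the result was not tested. The 3 Schwann cell markers summed to 20.7 to 99.7 normalized counts.

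*Lama4*, an alpha chain of vessel walls and mesenchyme, had normalized counts of 122, 102 and 106 in TM6, 116, 114 and 113 in rho0, 13.1, 17.04 and 19.7 in PKO-1 and 190.0, 158 and 150.3 in PKO-6. PKO-1 stood apart, below every library of the other lines, and TM6 and rho0 overlapped. It was 6.62-fold lower than TM6 (-2.71 ± 0.18, edgeR adjusted p = 1.587e-08) and 10.00-fold lower than PKO-6 (-3.30 ± 0.18, edgeR adjusted p = 2.002e-09). PKO-6 was higher than TM6 by 0.59 ± 0.14, edgeR adjusted p = 0.001484, and without PKO-6 replicate 1 this was 0.45 and no longer passed. The 4 endothelial markers summed to 158 to 177 normalized counts in PKO-6 and 20.3 to 86.8 in the other lines. The largest part was *Kdr*, at means of 55.2 in TM6, 12.8 in rho0, 22.2 in PKO-1 and 142 in PKO-6. In the same order *Pecam1* had 0.94, 1.71, 7.94 and 2.58, *Cdh5* had 0.94, 0.74, 5.19 and 6.66, and *Tek* had 10.5, 9.30, 6.85 and 14.9. The part of these markers in the result was not tested. *Lama3*, the alpha chain of epithelial laminin, was sparse, with 2.38 to 57.0 normalized counts over all libraries. It was lower in PKO-1 (-2.61 ± 0.39, edgeR adjusted p = 4.486e-05) and higher in PKO-6 (1.05 ± 0.26, edgeR adjusted p = 0.002476) than in TM6. The difference in PKO-6 was no longer called once TM6 replicate 3 (0.82), PKO-6 replicate 1 (0.99) or replicate 2 of PKO-6 (0.95) was left out. *Lama1*, the first alpha chain of the embryo, had 13 counts over the 3 TM6 libraries, 53 over those of rho0, 2 over those of PKO-1 and 83 over those of PKO-6. The ratio of PKO-1 to PKO-6 was 0.0282 (95% interval of counting error 0.0034 to 0.105), and rho0 and PKO-6 were above TM6 (log2 fold changes 2.17 ± 0.39, edgeR adjusted p = 0.0002231, and 2.63 ± 0.37, edgeR adjusted p = 2.289e-05).

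Of the gamma chains, *Lamc1*, the gamma chain of nearly all laminins, passed in none of the 3 comparisons with TM6. It ranged from 13523 to 19059 normalized counts over the 12 libraries, and its log2 fold changes were -0.18 ± 0.06 (edgeR adjusted p = 0.02135) in rho0, -0.00 ± 0.06 (edgeR adjusted p = 0.9779) in PKO-1 and -0.35 ± 0.06 (edgeR adjusted p = 0.0001943) in PKO-6, all below the threshold of size. *Lamc3* had 3.87 to 24.6 normalized counts in all libraries. It was lower in rho0 (-1.82 ± 0.43, edgeR adjusted p = 0.001864). For PKO-1 (-1.42 ± 0.41, edgeR adjusted p = 0.008046) the call was lost without any 1 of the TM6 or PKO-1 libraries or without rho0 replicate 3, with log2 values between -1.61 and -1.17 and adjusted p of up to 0.0412.

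Levels of different genes were compared per transcript length, as TPM, a level scaled to transcript length and library total that was deposited for each library, summed over transcripts. In TM6 the beta chains were split nearly evenly, with *Lamb1* at 64.5 ± 0.84 TPM and *Lamb2* at 61.4 ± 5.96 TPM (SD, n = 3). *Lamb2* held 48.3% ± 2.64 of beta chain TPM in TM6, while rho0 was at 14.3% ± 0.410, PKO-1 at 9.19% ± 0.891 and PKO-6 at 5.68% ± 0.449. The library values ran from 46.4% to 51.3% in TM6 and from 5.19% to 14.8% in the other lines, so they did not overlap. Among alpha chains, *Lama5* held 83.8% ± 0.687 in TM6, 93.2% ± 0.393 in rho0, 99.4% ± 0.0293 in PKO-1 and 96.7% ± 0.300 in PKO-6. *Lama2* made up most of the remainder, at 14.8% ± 0.726 in TM6, 5.99% ± 0.401 in rho0, 0.495% ± 0.0597 in PKO-1 and 1.75% ± 0.221 in PKO-6. Summed over chains, alpha TPM was 47.2 ± 3.74 in TM6 and 88.3 ± 6.62 in rho0, 60.8 ± 4.93 in PKO-1 and 68.5 ± 1.97 in PKO-6. Beta TPM was 127.0 ± 5.29, 162.9 ± 2.70, 170.5 ± 1.33 and 188.8 ± 6.80 in the same order. Every derived library was above every TM6 library for these 2 sums. *Lamc1* did not share this, at 73.6 ± 3.01 TPM in TM6, 64.1 ± 2.32 in rho0, 70.1 ± 1.12 in PKO-1 and 55.5 ± 2.47 in PKO-6. No test was run on shares or sums.

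**Figure D2:**
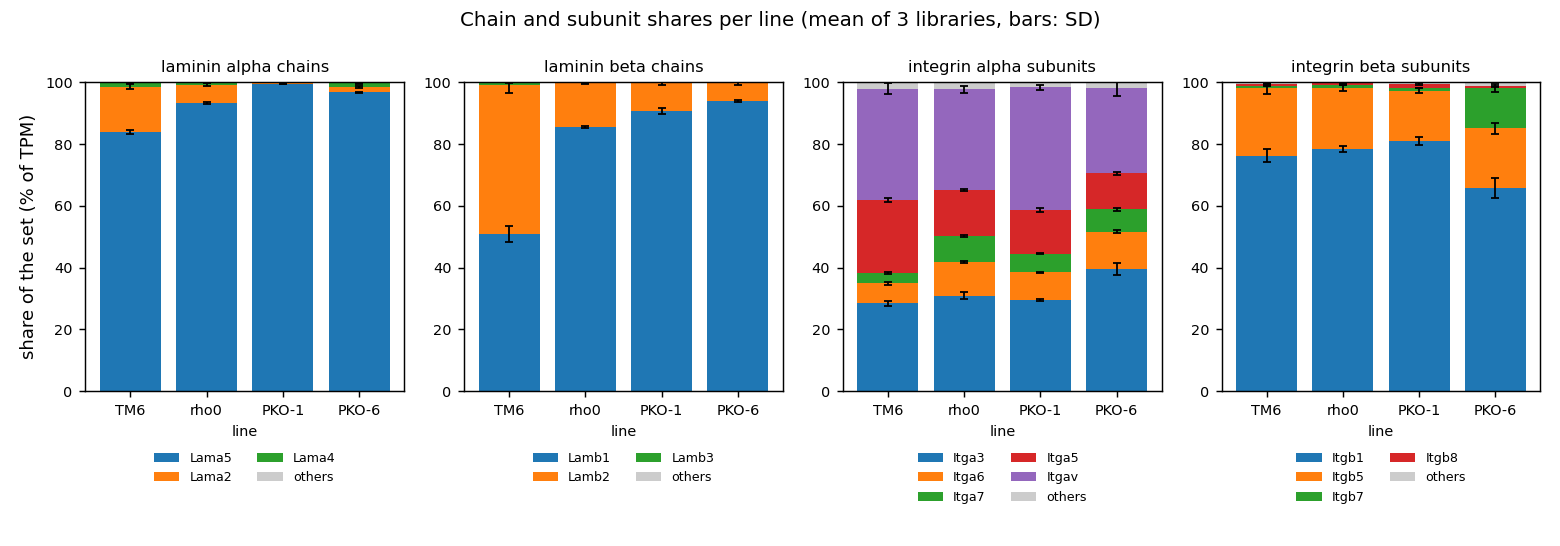
Share of each chain or subunit in the TPM of its set (vertical axes, % from 0 to 100) in TM6, rho0, PKO-1 and PKO-6, as the mean of 3 libraries with the SD of each share drawn at the top of its segment. *Lamb2* goes from 48.3% of beta chain TPM in TM6 to 5.68% in PKO-6, and *Itgb7* takes 12.9% of integrin beta TPM in PKO-6.

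Of the laminin-binding integrin subunits, *Itga6*, *Itga7* and *Itgb4* rose in every derived line and *Itga3* rose in PKO-6. That made 3 of 4 in rho0, 3 of 4 in PKO-1 and 4 of 4 in PKO-6, where 20.7%, 16.4% and 21.9% of all genes rose. The median log2 fold change of the 4 was 0.80, 0.94 and 1.17, beside 0.02, 0.00 and 0.01 over all genes. *Itga7*, the laminin receptor subunit of muscle, had normalized counts of 1289, 1139 and 1116 in TM6, 2686, 2447 and 2376 in rho0, 2527, 2578 and 2579 in PKO-1 and 2920.1, 3103 and 2504 in PKO-6. Each derived line was clear of TM6, and the derived lines overlapped with one another. Its log2 fold change was 1.08 ± 0.08 (edgeR adjusted p = 3.888e-08) in rho0, 1.12 ± 0.08 (edgeR adjusted p = 3.937e-08) in PKO-1 and 1.27 ± 0.08 (edgeR adjusted p = 6.603e-09) in PKO-6. *Itga6*, which pairs with beta1 or beta4, had 3069, 3598 and 3676 in TM6, 5133, 4614 and 5008 in rho0, 6047, 5759 and 5826 in PKO-1 and 6952, 7651 and 7266 in PKO-6. Its 4 lines did not overlap, and PKO-6 was highest. The log2 fold change was 0.77 ± 0.07 (edgeR adjusted p = 3.64e-07) in PKO-1 and 1.08 ± 0.07 (edgeR adjusted p = 7.44e-09) in PKO-6. In rho0 it was 0.51 ± 0.07, edgeR adjusted p = 1.519e-05, just past the threshold of 0.5, and it fell under it without TM6 replicate 1 (0.41), rho0 replicate 1 (0.47), rho0 replicate 3 (0.48), PKO-6 replicate 1 (0.49) or PKO-6 replicate 2 (0.49).

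*Itgb4*, the beta subunit of the hemidesmosome that joins epithelial cells to the basement membrane, had normalized counts of 45.0, 31.5 and 47.9 in TM6, 86.2, 87.5 and 99.4 in rho0, 86.9, 80.9 and 116 in PKO-1 and 423, 447 and 407 in PKO-6. PKO-6 was far above the others, and rho0 and PKO-1 overlapped above TM6. PKO-6 was 10.3-fold above TM6 (3.35 ± 0.16, edgeR adjusted p = 4.652e-10) and 4.50-fold above PKO-1 (log2 fold change of PKO-1 -2.17 ± 0.15, edgeR adjusted p = 3.475e-08). In rho0 and PKO-1 it was 2.2-fold and 2.28-fold above TM6 (1.13 ± 0.18, edgeR adjusted p = 5.779e-05, and 1.19 ± 0.18, edgeR adjusted p = 4.329e-05). *Itgb4* shares 55 exonic bases with *Galk1* on the opposite strand, and whether the counting used strand is not given in the sources used here. Of 6 epithelial markers, *Krt5* was at 0, and *Krt14*, *Cdh1* and *Krt8* had at most 1, 10 and 19 counts. *Epcam* was 88.0 ± 14.7 in PKO-6 against 1.46 to 8.15 in the other lines. *Krt18* ran the other way, with 4.85 to 9.83 normalized counts in PKO-6. It had 232 to 247 in TM6, 391 to 455 in rho0 and 806 to 833 in PKO-1. Outside PKO-6, most of the epithelial sum came from *Krt18*. The summed epithelial markers were 254 to 276 normalized counts in TM6, 409 to 471 in rho0, 815 to 842 in PKO-1 and 107 to 136 in PKO-6, and their part in the result was not tested. *Itga3*, the most abundant laminin-binding alpha subunit, rose in PKO-6 (0.67 ± 0.07, edgeR adjusted p = 1.926e-06), and it did not pass in rho0 (-0.11 ± 0.07, edgeR adjusted p = 0.1893) or PKO-1 (0.36 ± 0.07, edgeR adjusted p = 0.0006756). Its normalized counts ranged from 10386 to 12146 in TM6 and rho0, from 15070 to 15803 in PKO-1 and from 17475 to 21348 in PKO-6. Together *Itga3*, *Itga6* and *Itga7* held 38.3% ± 0.830 of integrin alpha TPM in TM6, 50.3% ± 1.30 in rho0, 44.5% ± 0.201 in PKO-1 and 58.8% ± 2.23 in PKO-6. Library values of this share did not overlap between lines.

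**Figure D3:**
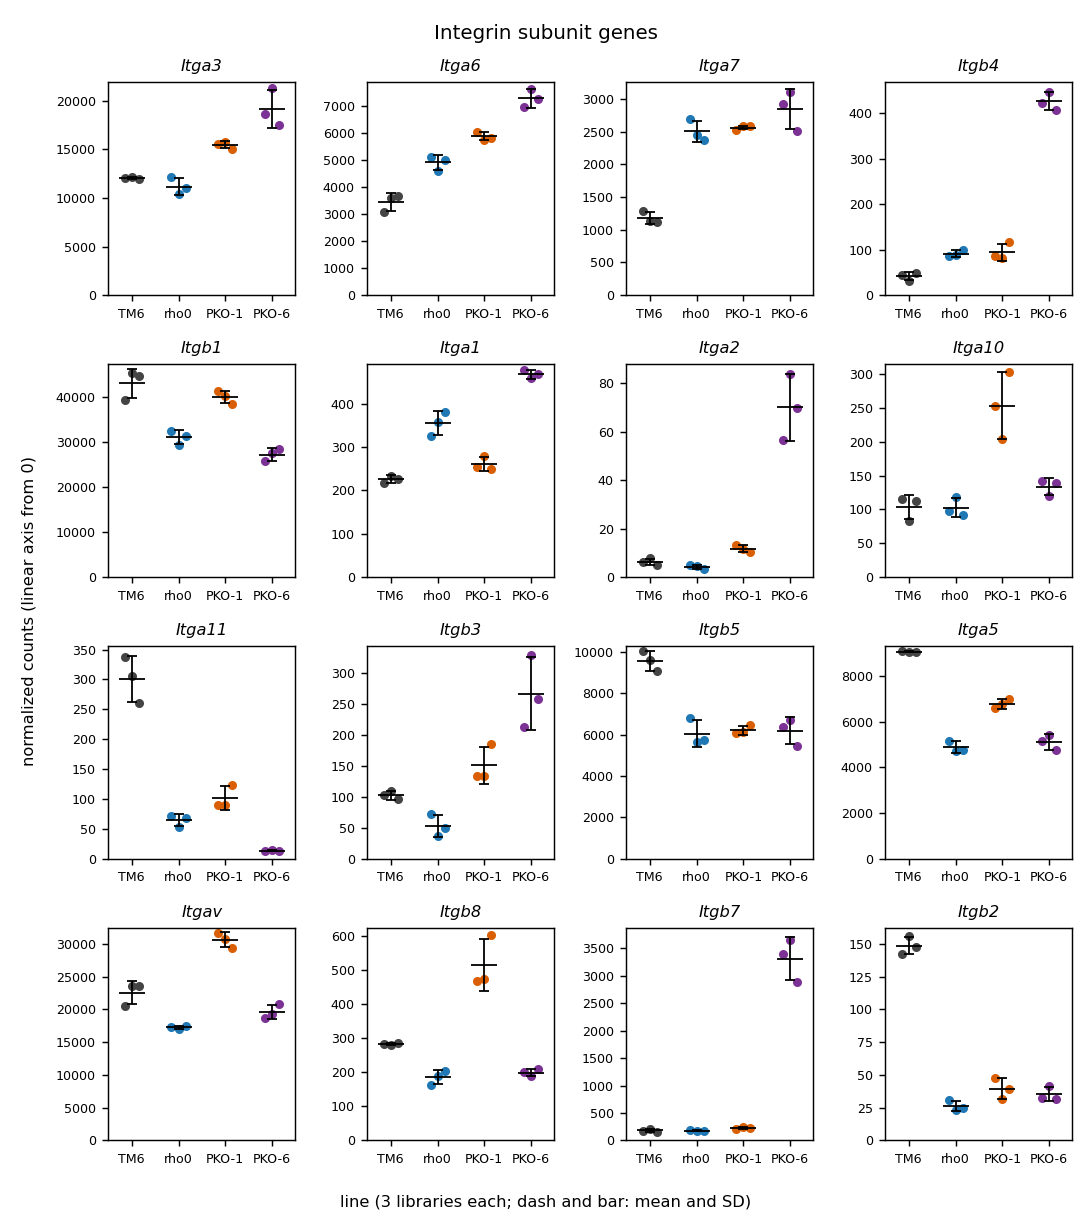
Normalized counts of 16 integrin subunit genes (vertical axes, linear from 0) in the 3 libraries of each line (dots), with the mean and SD (dash and bar). *Itga6*, *Itga7* and *Itgb4* are above TM6 in every derived library, *Itgb7* is high in PKO-6, and *Itga11* and *Itgb2* are highest in TM6.

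The shared beta subunit *Itgb1*, partner of most matrix-binding alpha subunits, was the most abundant integrin gene, at 324 ± 22.5 TPM in TM6, 230.3 ± 8.70 in rho0, 288 ± 8.35 in PKO-1 and 198 ± 20.9 in PKO-6. By normalized counts it was lower than TM6 in PKO-6 (-0.66 ± 0.07, edgeR adjusted p = 1.013e-06), and rho0 (-0.47 ± 0.07, edgeR adjusted p = 2.874e-05) and PKO-1 (-0.11 ± 0.07, edgeR adjusted p = 0.1862) did not reach the threshold. Chromosome 8, which holds it, had a median log2 fold change of -0.43 in PKO-6 against TM6, and with that median subtracted *Itgb1* was at -0.24. PKO-1 was above PKO-6 (0.56 ± 0.07, edgeR adjusted p = 8.868e-06), and with the median of chromosome 8 subtracted this was 0.26, under the threshold. In rho0 it passed without TM6 replicate 1 or rho0 replicate 1, with values down to -0.55. Its share of integrin beta TPM was 76.2% ± 2.13 in TM6 and 65.8% ± 3.11 in PKO-6.

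Of the collagen receptors, *Itga11* fell in all 3 derived lines, while *Itga1*, *Itga2* and *Itga10* rose in some. *Itga11*, a collagen receptor subunit typical of fibroblasts, had normalized counts of 337, 306 and 260.3 in TM6, 71.7, 53.2 and 68.1 in rho0, 90.5, 89.5 and 124 in PKO-1 and 13.1, 14.5 and 12.6 in PKO-6. TM6 was highest without overlap, and PKO-6 was lowest without overlap. It was 4.68-fold lower in rho0 (-2.22 ± 0.16, edgeR adjusted p = 3.683e-08), 2.97-fold lower in PKO-1 (-1.57 ± 0.16, edgeR adjusted p = 1.072e-06) and 22.5-fold lower in PKO-6 (-4.48 ± 0.20, edgeR adjusted p = 1.789e-10). Between the clones the log2 difference was 2.91 ± 0.21, edgeR adjusted p = 5.187e-08, with PKO-1 higher. *Itga10*, a subunit best known from cartilage, had 116, 83.1 and 112 in TM6, 96.9, 119 and 91.6 in rho0, 252, 204 and 304 in PKO-1 and 142, 119 and 139.6 in PKO-6. PKO-1 was above all other libraries, with a log2 fold change of 1.29 ± 0.17 (edgeR adjusted p = 1.54e-05) against TM6 and 0.92 ± 0.17 (edgeR adjusted p = 0.0002935) against PKO-6. Rho0 overlapped TM6, and PKO-6 did not pass (0.37 ± 0.17, edgeR adjusted p = 0.07547). *Itga1*, found on mesenchymal cells and smooth muscle, had 217, 234 and 227 in TM6, 326, 359 and 382 in rho0, 255, 280.1 and 249 in PKO-1 and 479, 459 and 468 in PKO-6. It rose in rho0 (0.65 ± 0.09, edgeR adjusted p = 1.558e-05) and PKO-6 (1.05 ± 0.09, edgeR adjusted p = 1.082e-07), and PKO-1 did not pass (0.21 ± 0.09, edgeR adjusted p = 0.05517). The 4 lines did not overlap. PKO-1 was below PKO-6, with a log2 fold change of -0.84 ± 0.09, edgeR adjusted p = 1.719e-06, and with the median of chromosome 13 subtracted this was -0.43, under the threshold. *Itga2*, the collagen receptor subunit of platelets and epithelia, lies near *Itga1* on chromosome 13 and had 3.35 to 13.1 normalized counts in TM6, rho0 and PKO-1 and 56.5 to 83.9 in PKO-6. Its rise in PKO-6 was 11.3-fold over TM6 (3.46 ± 0.26, edgeR adjusted p = 4.543e-08). Summed, the 4 collagen-binding subunits held 1.09% to 1.38% of integrin alpha TPM in the line means.

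Receptors for the RGD motif were mixed. *Itgb5*, the vitronectin receptor subunit that pairs with alphav, fell in each line, with log2 fold changes of -0.66 ± 0.08 (edgeR adjusted p = 8.258e-06) in rho0, -0.62 ± 0.08 (edgeR adjusted p = 1.769e-05) in PKO-1 and -0.63 ± 0.08 (edgeR adjusted p = 1.29e-05) in PKO-6. Its normalized counts were 9064 to 10037 in TM6 and 5470 to 6795 in the other lines. *Itga5*, the fibronectin receptor subunit, fell in rho0 (-0.89 ± 0.06, edgeR adjusted p = 7.689e-09) and PKO-6 (-0.82 ± 0.06, edgeR adjusted p = 1.441e-08), and in PKO-1 the difference was below the threshold (-0.42 ± 0.06, edgeR adjusted p = 1.829e-05). *Itga5* lies on chromosome 15, which had a median log2 fold change of -0.38 in rho0 against TM6. With that median subtracted *Itga5* was at -0.51 in rho0, just past the threshold. *Itgav*, the alphav subunit and the most abundant alpha subunit in TM6 and PKO-1 by TPM (99.3 ± 7.34 and 129 ± 3.30), passed in none of the comparisons with TM6 and was higher in PKO-1 than in PKO-6 (0.64 ± 0.07, edgeR adjusted p = 1.355e-06). In PKO-6 *Itga3* was the highest alpha subunit (119 ± 6.63 TPM against 83.4 ± 9.80 for *Itgav*), and in rho0 the spreads of *Itga3* and *Itgav* (71.3 ± 1.31 and 75.1 ± 5.23 TPM) met.

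*Itgb8*, which with alphav releases active TGF-beta from its latent form, had normalized counts of 284, 282 and 287 in TM6, 164, 189 and 204 in rho0, 469, 475 and 604 in PKO-1 and 201, 189 and 209 in PKO-6. PKO-1 was above TM6 and both other lines were below it, without overlap with TM6. The log2 fold change was -0.61 ± 0.12 (edgeR adjusted p = 0.0003463) in rho0, 0.86 ± 0.11 (edgeR adjusted p = 1.365e-05) in PKO-1 and -0.51 ± 0.12 (edgeR adjusted p = 0.001415) in PKO-6, and the clones differed by 1.37 ± 0.12, edgeR adjusted p = 2.198e-07. *Itgb8* lies on chromosome 12, and with the median of that chromosome subtracted it was at -1.17 in rho0, 0.30 in PKO-1, no longer past the threshold, and -1.04 in PKO-6. *Itgb3*, partner of alphav and of the platelet subunit alphaIIb, had 102, 109.9 and 95.7 in TM6, 72.6, 36.6 and 49.1 in rho0, 133, 133 and 185 in PKO-1 and 212, 329 and 258 in PKO-6. The 4 lines did not overlap, with rho0 lowest and PKO-6 highest. It was -0.94 ± 0.24 (edgeR adjusted p = 0.003034) in rho0 and 1.37 ± 0.21 (edgeR adjusted p = 5.445e-05) in PKO-6, and PKO-1 did not pass (0.56 ± 0.22, edgeR adjusted p = 0.03931). The fall in rho0 did not pass without TM6 replicate 2 (-0.90), rho0 replicate 2 (-0.77) or rho0 replicate 3 (-0.92). PKO-1 was below PKO-6, with a log2 fold change of -0.82 ± 0.21, edgeR adjusted p = 0.00389, and this call was lost with the first (-0.74) or second (-0.73) PKO-1 library or PKO-6 replicate 2 (-0.64) left out. *Itga8*, a receptor subunit of smooth muscle and developing kidney, had 20.2 to 112 normalized counts and was lower in rho0 (-1.04 ± 0.22, edgeR adjusted p = 0.0008193) and PKO-1 (-0.99 ± 0.22, edgeR adjusted p = 0.00139) and higher in PKO-6 (0.79 ± 0.19, edgeR adjusted p = 0.002339). The last was lost without TM6 replicate 2 (0.71), PKO-6 replicate 1 (0.76) or PKO-6 replicate 3 (0.71). *Itga2b*, the platelet subunit alphaIIb, stood at 97.9 to 178 normalized counts and passed in none of the 6 comparisons (lowest edgeR adjusted p = 0.02915). Among 4 platelet markers, *Ppbp* was 84.7 ± 11.5 in TM6 and at most 2.38 in the other libraries. *Pf4* and *Gp9* reached at most 1 count in any library. *Gp1ba* was present in every line, with 36.3 to 57.9 normalized counts in TM6 and 12.6 to 48.8 in rho0. It spanned 15.5 to 37.2 in PKO-1 and 22.3 to 30.3 in PKO-6. What part these markers had in the values above was not tested.

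The largest rise of any member was that of *Itgb7* in PKO-6. *Itgb7* (chromosome 15, 102215995 to 102231935, 15 exons) encodes the beta subunit that guides lymphocytes to the gut when paired with alpha4 or alphaE. Its normalized counts were 178, 205 and 161 in TM6, 189, 175 and 179 in rho0, 214, 247 and 229 in PKO-1 and 3396, 3644 and 2879 in PKO-6. TM6 and rho0 overlapped, PKO-1 was slightly above them, and every PKO-6 library was far above all others. PKO-6 was 18.2-fold above TM6 (4.19 ± 0.11, edgeR adjusted p = 9.113e-13), 18.3-fold above rho0 (4.19 ± 0.11, edgeR adjusted p = 5.992e-12) and 14.4-fold above PKO-1 (log2 fold change of PKO-1 -3.84 ± 0.11, edgeR adjusted p = 4.308e-12). In rho0 and PKO-1 it did not pass (-0.00 ± 0.12, edgeR adjusted p = 0.9822, and 0.34 ± 0.11, edgeR adjusted p = 0.01677). It held 12.9% ± 1.32 of integrin beta TPM in PKO-6 and 0.452% to 0.809% in each library of the other lines. Of its known partners, *Itga4* had 66.3 to 120.2 normalized counts in PKO-6 and 39.2 to 108 in TM6, and *Itgae* had 17.6 to 31.0 and 14.7 to 20.1. Neither passed in any comparison with TM6. *Ptprc*, the defining leukocyte marker, had at most 3 counts and *Cd3e* had 0 in every library. The 7 leukocyte markers summed to 46.5 to 67.4 normalized counts in PKO-6 and 5.81 to 21.1 in the other lines, mostly from *Lyz2* at 50.8 ± 13.8 in PKO-6.

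*Itgb2*, the beta subunit common to the leukocyte integrins, had normalized counts of 143, 156 and 148 in TM6, 31.0, 23.3 and 24.6 in rho0, 47.6, 32.0 and 39.3 in PKO-1 and 32.8, 41.5 and 32.0 in PKO-6. TM6 was highest without overlap, and the derived lines were low. It fell 5.66-fold in rho0 (-2.49 ± 0.19, edgeR adjusted p = 4.108e-08), 3.75-fold in PKO-1 (-1.91 ± 0.18, edgeR adjusted p = 4.958e-07) and 4.2-fold in PKO-6 (-2.07 ± 0.18, edgeR adjusted p = 1.443e-07). Its alpha partners *Itgal*, *Itgam* and *Itgax* had 0 to 3 counts in every library.

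The 6 members that did not pass the filter on low counts were *Itga9*, *Itgad*, *Itgal*, *Itgam*, *Itgax* and *Itgb6*, with at most 12 counts in any library. *Itga9* had 4 to 12 counts in the TM6 libraries and 0 to 3 elsewhere, and *Itgb6* had 6 to 8 and 0 to 3. *Itgad* had 5 to 7 counts in rho0 and 4 to 7 in PKO-6, against 0 or 1 in TM6 and 0 in PKO-1. Exons of *Itgad* share 309 bases with *4931431B13Rik*, whose level is not given here, and 69 bases with *Cox6a2*, both on the opposite strand. *Cox6a2* had 599 ± 118 normalized counts in rho0 and 970.1 ± 108 in PKO-6, against 2.18 ± 1.08 in TM6 and 61.2 ± 19.6 in PKO-1. Reads of the overlapping genes cannot be told apart here. *Itga4* likewise shares 166 exonic bases with *Cerkl*.

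Transcript forms were compared by the deposited isoform share, the percent of a gene's transcripts. *Itga6* has a form of 25 exons (5888 bases) and one of 26 exons (6018 bases). The form of 25 exons held 31.9% ± 2.69 in TM6, 26.1% ± 3.03 in rho0, 26.5% ± 2.73 in PKO-1 and 27.3% ± 2.1 in PKO-6, with overlap between TM6 and each other line. *Itga3*, *Itga5* and *Itgb5* were read almost wholly as 1 form in every library, at 89.0% to 97.4%, 99.2% to 100% and 97.4% to 99.8%. For *Itgb4* the form of 40 exons held 44.6% to 100% in TM6, on 31.5 to 47.9 normalized counts of the gene, and 8.30% to 20.3% in PKO-6. The 31-exon form of *Itgae* was at 0% in all TM6 libraries and 49.8% to 55.8% in those of PKO-6, on 14.7 to 32.4 normalized counts of the gene.

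**Figure D4:**
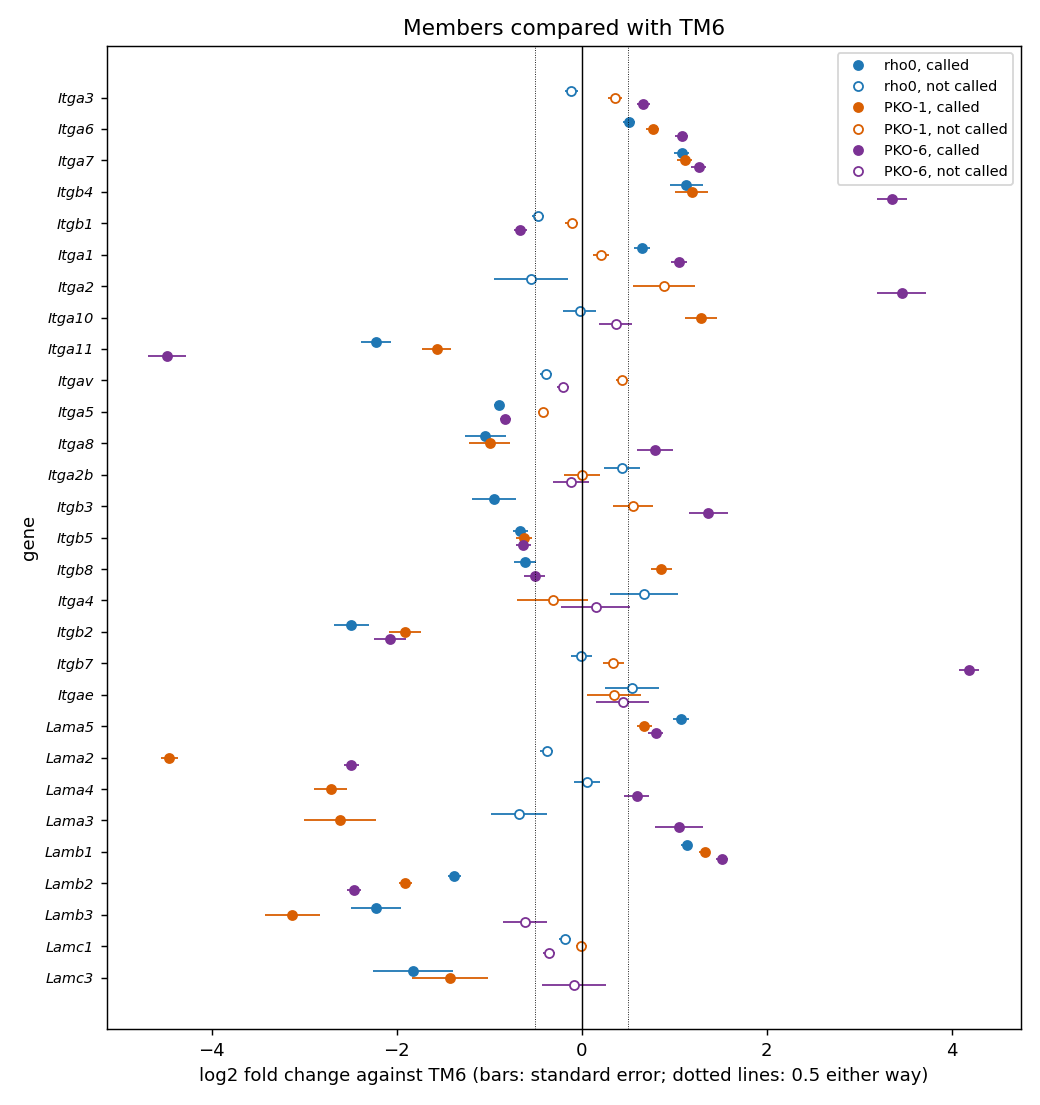
Log2 fold change against TM6 (horizontal axis, bars for the standard error) of 29 tested members, for rho0, PKO-1 and PKO-6, with filled points for changed genes and open points for the rest. *Itgb7* in PKO-6 is farthest to the right (4.19), and *Lama2* in PKO-1 (-4.45) and *Itga11* in PKO-6 (-4.48) are farthest to the left.

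Other genes of the basement membrane and of adhesion were read from lists drawn up by function. Of all tested genes, 42.1% were changed in rho0, 34.3% in PKO-1 and 41.3% in PKO-6 against TM6. Of 8 laminin partners in the basement membrane, 2 rose and 4 fell in rho0 (75% changed), and 2 rose and 5 fell in each PKO clone (87.5% changed). *Col4a1* and *Col4a2*, the chains of the collagen IV network, fell, with *Col4a2* at 8078 ± 241 normalized counts in TM6, 2231 ± 140.1 in rho0, 2489 ± 57.5 in PKO-1 and 664 ± 30.9 in PKO-6, a log2 change of -3.60 ± 0.06, edgeR adjusted p = 2.324e-14 in the last. *Nid1*, a linker of laminin to collagen IV, was at 15985 ± 639 in TM6 and 4860.2 ± 148 in PKO-1 (-1.72 ± 0.06, edgeR adjusted p = 1.734e-11). It was at 17885 ± 807 in rho0 and 10224 ± 502 in PKO-6. *Agrn*, which encodes agrin and binds laminin, rose from 1757 ± 130.2 in TM6 to 5208 ± 230.4 in rho0 (1.57 ± 0.07, edgeR adjusted p = 2.762e-10) and 8124 ± 582 in PKO-6 (2.21 ± 0.07, edgeR adjusted p = 7.521e-12). In PKO-1 *Agrn* was at 3440 ± 199, a mean 1.96-fold that of TM6. *Col18a1*, a basement membrane collagen, rose in PKO-1 (1.75 ± 0.08, edgeR adjusted p = 2.478e-10). Its mean was 2.85-fold that of TM6 in rho0, 3.36-fold in PKO-1 and 2.87-fold in PKO-6.

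Laminin receptors that are not integrins numbered 7, and 1 rose and 5 fell in rho0 (85.7% changed) while 1 rose and 3 fell in each clone (57.1% changed). The 1 that rose was *Bcam*, a receptor for the alpha5 chain, at 55.9 ± 8.75 normalized counts in TM6, 138 ± 23.2 in rho0, 206 ± 24.3 in PKO-1 and 648 ± 90.2 in PKO-6. Its log2 fold changes were 1.30 ± 0.17, edgeR adjusted p = 1.342e-05, 1.88 ± 0.17, edgeR adjusted p = 3.739e-07 and 3.53 ± 0.17, edgeR adjusted p = 2.952e-10. *Dag1*, which encodes dystroglycan, a receptor for laminins that carry alpha2, fell in rho0 (-0.87 ± 0.07, edgeR adjusted p = 7.092e-08), PKO-1 (-0.91 ± 0.07, edgeR adjusted p = 6.697e-08) and PKO-6 (-1.24 ± 0.07, edgeR adjusted p = 1.744e-09). Of 6 enzymes that glycosylate dystroglycan, 2 rose in rho0, 3 in PKO-1 and 3 in PKO-6, among them *Pomt2*, an enzyme that adds the first mannose (0.53 ± 0.06, edgeR adjusted p = 1.305e-06 in rho0), and *Large* fell in PKO-6 (-0.71 ± 0.06, edgeR adjusted p = 5.662e-08). Changed in either direction were 33.3% of these enzymes in rho0, 50% in PKO-1 and 66.7% in PKO-6.

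Among 14 tested ligands of other integrins, 1 rose and 11 fell in rho0 (85.7% changed), 5 rose and 6 fell in PKO-1 (78.6%), and 3 rose and 6 fell in PKO-6 (64.3%). *Fbn1*, which encodes fibrillin, was at 10318 ± 200.5 normalized counts in TM6, 1191 ± 68.5 in rho0, 2348 ± 169 in PKO-1 and 138 ± 5.22 in PKO-6 (-6.22 ± 0.08, edgeR adjusted p = 1.099e-15). *Thbs1*, which encodes thrombospondin, fell in rho0 (-3.62 ± 0.08, edgeR adjusted p = 2.105e-13). Its mean was also 2.62-fold lower than TM6 in PKO-1 and 7.02-fold lower in PKO-6. *Postn*, a ligand of alphav integrins, was at 756 ± 47.9 in TM6 and at means of 1.11 to 1.81 in the other lines. *Spp1*, which encodes osteopontin, an RGD ligand, rose 8-fold in PKO-1 (3.00 ± 0.08, edgeR adjusted p = 1.882e-12). Its mean was 3.00-fold higher than TM6 in PKO-6 and 1.54-fold lower in rho0. *Vwf*, an RGD ligand of platelets, rose to 112 ± 14.3 in PKO-1 and 163 ± 46.7 in PKO-6 from 4.64 ± 1.45 in TM6.

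Of 11 tested genes of integrin activation and linkage, 3 rose and 3 fell in rho0, 1 rose and 2 fell in PKO-1, and 2 rose and 3 fell in PKO-6. The changed shares were 54.5%, 27.3% and 45.5%, where 42.1%, 34.3% and 41.3% of all genes were changed. The share was thus below that of all genes in PKO-1 and near it in PKO-6. *Parvb*, an actin-binding partner of integrin-linked kinase, rose from 1455 ± 52.3 normalized counts in TM6 to 3166 ± 179.8 in rho0, 5737 ± 109 in PKO-1 and 7883 ± 522 in PKO-6 (2.44 ± 0.06, edgeR adjusted p = 7.137e-13). *Ilk*, the integrin-linked kinase itself, fell in rho0 (-0.77 ± 0.06, edgeR adjusted p = 1.434e-07) and PKO-6 (-1.13 ± 0.07, edgeR adjusted p = 2.354e-09). Of 6 membrane proteins that associate with integrins, 2 fell in rho0 (33.3%) and 1 in each clone (16.7%), and none rose. These shares were below those of all changed genes in each line. The tetraspanin *Cd82* fell in every derived line, from 1327 ± 92.9 in TM6 to 375 ± 46.3 in rho0, 347 ± 27.2 in PKO-1 and 399 ± 48.7 in PKO-6.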

How the data were processed

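RNA of 12 libraries was ribosome-depleted, made into stranded libraries and sequenced in pairs by the authors, who merged technical duplicates and estimated transcripts with RSEM 1.2.25 and bowtie2 on RefSeq transcripts of mm10 (GRCm38). The strand setting is not given in the sources used here. The deposited values are expected counts, TPM and the isoform percent of each transcript. Gene counts, 12.5% of them with decimals, were rounded. edgeR 4.0.16 (R 4.3.3) with a minimum count of 10 in filterByExpr, TMM scaling and the quasi-likelihood test compared the lines in 1 fit, with Benjamini-Hochberg adjustment over 14026 genes. Standard errors were taken as the absolute log2 fold change divided by the square root of F. A fit on simulated counts with 200 changed genes recovered 92.5% of them for rho0, 91% for PKO-1 and 89% for PKO-6 against TM6 (86%, 87% and 80% of those changed by a log2 fold change of 1). Members with values in every library are those changed in 1 of the 6 comparisons by a log2 fold change above 1, with a line mean of at least 100 normalized counts. From each other list, up to 3 changed genes with the largest log2 fold changes were eligible per comparison with TM6. Members and lists were chosen with earlier results of these data known. Sequence capitals are motif matches found in RefSeq windows. The study's methods call the replicates biological, the labels only number them, and no 2 were identical. Same-numbered samples of TM6 and PKO-6 deviated together in all 3 pairs, by a check of correlations, and those of each other pair of lines did not in at least 1 of 3. Results for 1 member and 1 other gene are not reported here. Alternatives changed the scaling, filter, thresholds, tool, grouping and samples.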

Additional observations from a re-analysis of the deposited data

Results flagged for a closer look

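The PKO clones carry the same deletion but differed from each other, by the edgeR test of PKO-1 against PKO-6, in 18 of the 31 tested members, against 29.1% of all genes. Lower in PKO-1 on the log2 scale were *Itgb7* (-3.84), *Lama3* (-3.67), *Lama4* (-3.30), *Itga2* (-2.57), *Lamb3* (-2.52), *Itgb4* (-2.17), *Lama2* (-1.97), *Itga8* (-1.79), *Itga1* (-0.84) and *Itgb3* (-0.82), and *Lama1* at a ratio of 0.0282. Higher in PKO-1 were *Itga11* (2.91), *Itgb8* (1.37), *Itga10* (0.92), *Itgav* (0.64), *Lamb2* (0.56) and *Itgb1* (0.56). With chromosome medians subtracted, *Itgb1* (0.26) and *Itga1* (-0.43) were no longer past the threshold. Of these, *Itgb8*, *Lama3*, *Lama4* and *Itga8* differed from TM6 in opposite directions in the clones, with both differences called. *Itgb8* in PKO-1 against TM6 fell to 0.30, under the threshold, with the median of chromosome 12 subtracted. For *Lama3*, *Lama4* and *Itga8*, the call of PKO-6 against TM6 was lost with some single libraries left out. The means of *Lama1* (0.74 in PKO-1, 4.04 in TM6 and 25.7 in PKO-6) and of *Itgav* (30600.4, 22544 and 19588) also lay on either side of TM6, where *Lama1* in PKO-1 and *Itgav* in both clones were not called. *Itgb3* was called only when PKO-1 replicates 1 and 2 and PKO-6 replicate 2 were all kept (-0.74, -0.73 and -0.64 without each). Each clone is 1 descent from a single cell, so clone and deletion cannot be told apart.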

How the results depend on the processing

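The counts of changed members stayed within 1.5 times their value with DESeq2 size factors, DESeq2's Wald test, *Rn45s* left out, no filter on low counts, each comparison fitted on its own lines, an adjusted p under 0.05 and chromosome medians subtracted. In rho0 against TM6, 11 members passed with a test against a log2 fold change of 0.5 (28.3% of all genes). With one above 1 required, 11 passed in rho0 against TM6 (21% of all genes) and 14 in PKO-6 against TM6 (21.7% of all genes). With the adjusted p alone, 18 of the 31 tested members passed in PKO-1 against rho0, near the share of all genes (53.9%). With the clones pooled, 8 members passed in rho0 against TM6 (29.3% of all genes). In the single comparison of PKO with TM6 that stands in for both clones, 11 passed (25.7% of all genes). Against the values of 1 clone, the pooled log2 fold change had the other sign for calls of *Itga8* (0.17) and *Lama3* (0.18) of PKO-1 and for *Itgb8* (0.33) and *Lama4* (-0.26) of PKO-6, since the pooled value averages clones on opposite sides of TM6. The same held for some values that were not called. Among them were *Lama1* in PKO-1 (1.70 pooled), *Itgav* in PKO-6 (0.15 pooled), *Itga4* in PKO-6 (-0.06 pooled) and *Itga2b* in PKO-1 (-0.06 pooled). With counts per annotated length in place of TPM, the *Itgb7* share of the integrin beta sum in rho0 was 0.721% and not 0.738%. It was also lower by this measure in TM6 (0.506% against 0.518%), PKO-1 (0.735% against 0.753%) and PKO-6 (12.6% against 12.9%), and the cause was not tested. Leaving out 1 library at a time gave 15 to 17 members in rho0, 16 to 17 in PKO-1 and 20 to 24 in PKO-6 against TM6, 17 to 19 between the clones, and 9 to 15 in PKO-1 and 13 to 16 in PKO-6 against rho0. In the same order, the share of all genes was 39.5% to 44.2%, 32.3% to 34.3%, 39.8% to 41.9%, 26.9% to 29.4%, 29.2% to 34.5% and 19.1% to 23.9%. In PKO-1 against rho0 the calls of *Itga11*, *Itga2* and *Lamb2* were among those lost, and in PKO-6 against rho0 those of *Lama4* and *Lamc3*. With the replicate number as a block, the counts were 17, 16 and 23 against TM6, 18 between the clones, and 11 and 15 against rho0, and *Lamc3* in PKO-1 was the 1 call lost. The shares of all genes were then 41.7%, 33.9%, 41.2%, 28.7%, 32.3% and 21% in that order. Samples with the same number correlated in their deviations from the line means by -0.385 to 0.25, above 0.1 in 10 of 18 pairs. For TM6 with PKO-6 all 3 pairs were above 0.1 (0.25, 0.25 and 0.209), and there the block left the count at 23. In each other comparison at least 1 pair was below 0.1, so pairing by number was not shown there. Depth limits *Lama1*, *Lama3*, *Lamc3*, *Lamb3*, *Itga2*, *Itga8* and the transcript forms of *Itgae* and *Itgb4*, which rest on few counts.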
